A study of Mus musculus with 5 samples.

Results

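The interferon response genes described here are 44 genes chosen by name: their symbol in the count table equals an entry of a given list. All 44 were found among the 54532 genes of the table, and all 44 passed the filter on low counts that left 15920 genes for testing. RNA of 5 sorted populations of mouse adipose-derived stem cells was sequenced after poly(A) selection. The stromal cells came from subcutaneous (SAT) and visceral (VAT) fat of 30 mice that were wild-type by genotype, on a chow diet and 12 to 14 weeks of age. Endothelial (CD31+) and blood (CD45+) cells were gated out, and the remaining cells were sorted on CD26, the surface peptidase encoded by Dpp4, and CD142, the tissue factor encoded by F3. Cells of the animals were pooled, sex and strain are not given in the sources used here, and no label says whether the libraries came from separate pools of mice, so the spread between libraries may not be the spread between animals. VAT gave 2 libraries of CD26-CD142+ cells and 1 of CD26+CD142+ cells.

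SAT gave 1 library titled CD26+CD142- but named for CD142 (SAT library 1) and 1 titled CD26-CD142+ but named for CD26 (SAT library 2), so the titles and library names give opposite gates. Dpp4 was at 6.58 CPM in SAT library 1 and 1007 CPM in SAT library 2, and F3 at 618 and 5.32 CPM, so the sort genes went with the names and against the titles. Levels are given as CPM, counts relative to library size after scaling by the trimmed mean of M values. Comparisons between depots over all gates do not use the SAT gates. Those that do are given by title and by name. Throughout, values of 2 libraries of a depot or gate are given with library 1 first.

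Interferons are cytokines that cells release on sensing viral or misplaced nucleic acid. Type I interferons act through the receptor chains IFNAR1 and IFNAR2 and lead to factors such as STAT2 and IRF9 at the interferon-stimulated response element (ISRE) of promoters. Interferon gamma has receptors of its own and acts at gamma-activated sites (GAS). The induced proteins sense nucleic acid, block viral replication or tag proteins with ISG15. Stromal progenitors of fat carry interferon receptors and can both sense nucleic acid and answer interferon.

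Total counts ran from 21706345 to 25357403 per library. Mitochondrially encoded genes made up 2.83% and 4.33% of counts in the libraries whose names end in 1 (SAT library 1 and VAT CD26-CD142+ library 1), and 0.554% to 0.633% in the other libraries. The progenitor markers Pdgfra (682 to 1173 CPM) and Dcn (9323 to 18357 CPM) were high in every library. Of the excluded cells, Ptprc (CD45) was at 0.183 to 0.989 CPM and Pecam1 (CD31) at 2.32 to 7.26 CPM. The 8 mammary and skin epithelial markers summed to 208 CPM in SAT library 1 and to 1.38 to 38.8 CPM in the others, with Epcam at 25.2 CPM in SAT library 1 and at most 0.0860 CPM elsewhere. Mesothelial markers summed to 5.01 CPM in SAT library 2 and to 144 to 359 CPM in the other libraries. That list shares Krt8, Krt18 and Krt19 with the epithelial one, so the sums are not independent.

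Every member was detected in every library. Together the members took 0.299% and 0.368% of counts in SAT, 0.260% and 0.190% in VAT CD26-CD142+ and 0.228% in VAT CD26+CD142+. Their median level was 36.2 and 57.1 CPM in SAT, 27.1 and 21.1 CPM in VAT CD26-CD142+ and 26.7 CPM in VAT CD26+CD142+. Of the 5 libraries, SAT library 2 held the highest value of 32 members, and VAT CD26-CD142+ library 2 the lowest value of 19. These are bulk libraries, in which fewer cells of a type and less RNA per cell cannot be told apart.

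**Figure D1:**
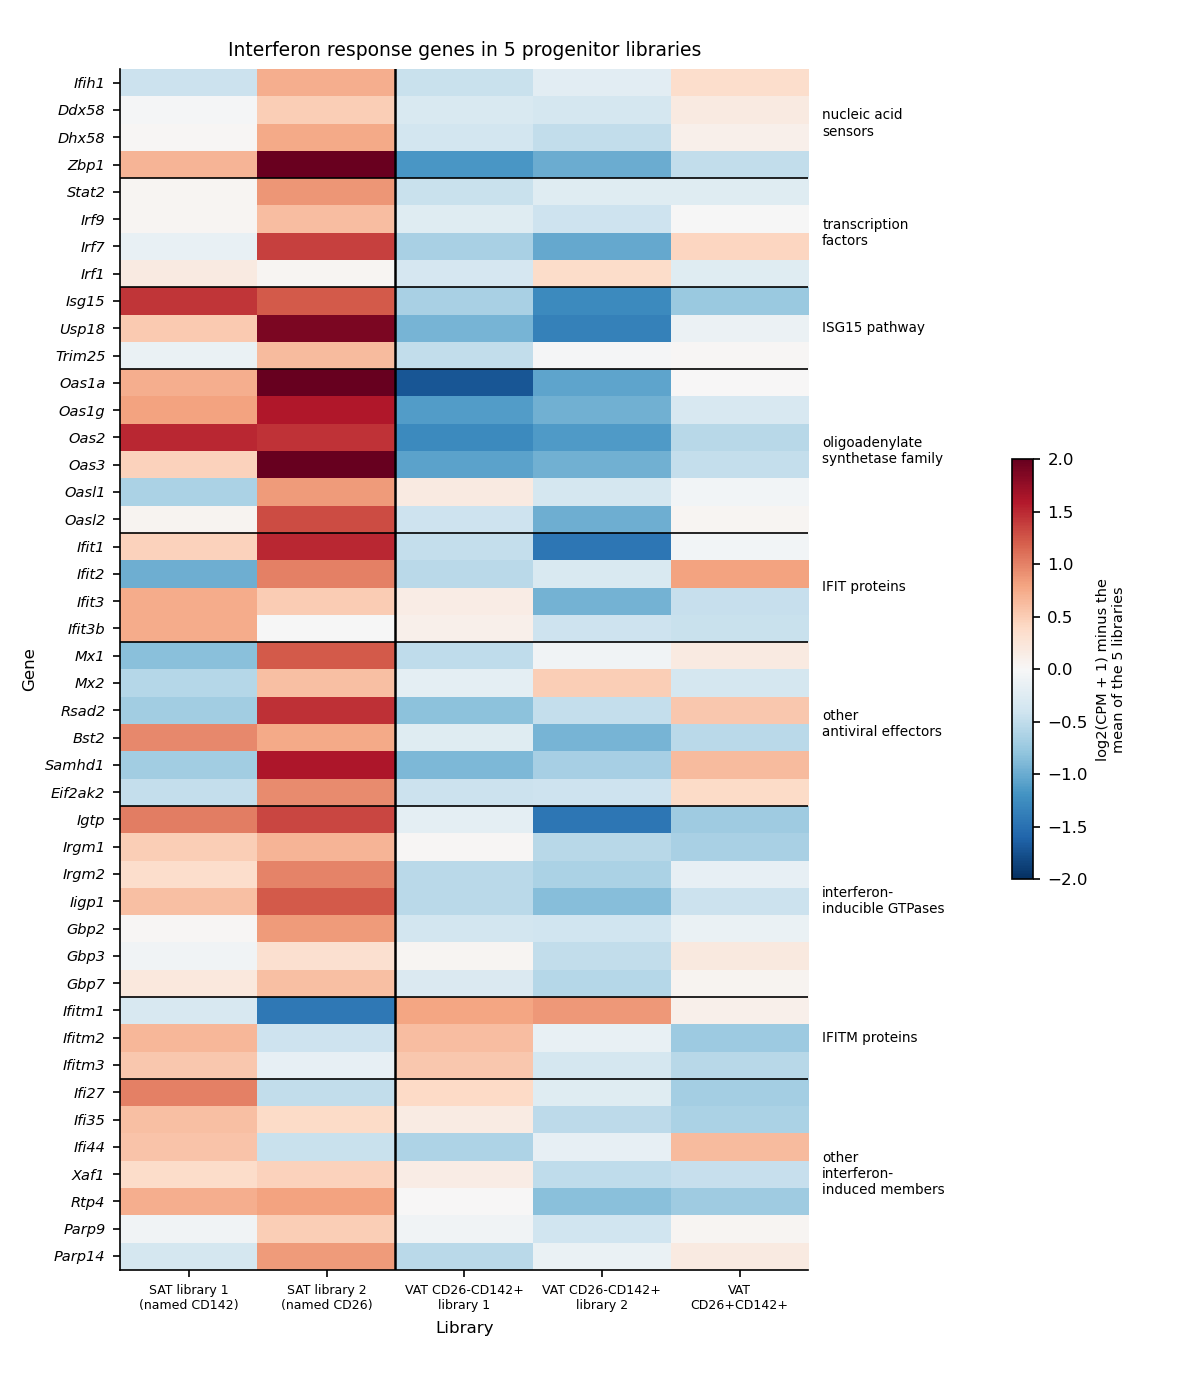
Level of each of the 44 members (rows, grouped by role) in the 5 libraries (columns), as log2(CPM + 1) minus the mean of that gene over the 5 libraries; the colour scale ends at 2 in either direction. Red fills most of the SAT library 2 column, where 32 members had their highest value, while the 3 IFITM genes are pale or blue there.

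Per length, the members spanned a wide range. Ifitm3, a membrane protein that blocks viral fusion, averaged 1059 CPM per kilobase over the 5 libraries, its relative Ifitm2 284, the mitochondrial protein gene Ifi27 134 and the virus tether gene Bst2 126. Irf1, Isg15 and Gbp2 followed at 34.5, 30.7 and 30.7 CPM per kilobase. At the low end, 5 members stayed under 10 CPM in every library and 4 were under 1 CPM in at least 1 library: Oas1g, Oas3, Ifi44 and Mx1. Oas1g, Oas3 and Ifi44 each had 1 count in VAT CD26-CD142+ library 1. Oas1g and Oas3 passed the filter through SAT, where they were high, so they had to differ between depots: their values are described, and counts between depots are also given without them.

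Several members lie side by side in the genome (mm10). Oas2, Oas3, Oas1g and Oas1a occupy chromosome 5 from 120730333 to 120907521, on the minus strand, with Oasl2 and Oasl1 apart from them at 114896936 to 114937915. Ifit2, Ifit3, Ifit3b and Ifit1 lie on chromosome 19 from 34550694 to 34650009. Ifitm2, Ifitm1 and Ifitm3 lie on chromosome 7 from 140954837 to 141010770, Gbp7, Gbp3 and Gbp2 on chromosome 3 from 142530342 to 142638008, and Igtp and Irgm2 overlap on chromosome 11 from 58199556 to 58222782. Neighbouring copies limit what single counts mean. Of all 100-base stretches of annotated Oas1a exons, 40.9% also occur in Oas1g, and 31.2% of those of Oas1g occur in Oas1a. The share is 31.7% for Ifit3 and 27.4% for Ifit3b, and 34.9% of those of Ifitm2 occur in other genes, so the counts of these members are uncertain to that extent. Exons of Ifi35 and Parp9 overlap genes on the opposite strand over 16.8% and 9.40% of their length, and whether counting used strand is not given in the sources used here.

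RefSeq promoter windows (GRCm38.p6, 250 bases before to 50 after the start) were found for 33 of the 44 members. Oas2, Usp18, Ifi27, Dhx58, Mx1, Mx2, Iigp1, Rtp4, Zbp1, Parp9 and Parp14 had no entry. The ISRE core, searched on both strands as 2 copies of GAAA with any 2 bases between them, occurred in 21 of the 33 members (63.6%), against 3.99% of all 27025 symbols with a window. The GAS core, TTCNNNGAA, which reads the same on both strands, occurred in 11 (33.3%) against 9.55%. The stretches below are the 120 bases before the start on the gene's own strand. They are shown for members whose depots were separated (Isg15, Oas1a, Igtp, Irgm2, and Oas1g and Oas3 as neighbours of Oas1a), for members higher in the CD26-named library of both depots (Ifit1 and Rsad2 with a match, Samhd1 and Irf7 without) and for Ifitm2, of a family with another order of libraries. Capitals mark the ISRE core matches, which overlap each other in Isg15, Oas1a and Oas1g.
Isg15, chr4:156200819-156200938, minus strand: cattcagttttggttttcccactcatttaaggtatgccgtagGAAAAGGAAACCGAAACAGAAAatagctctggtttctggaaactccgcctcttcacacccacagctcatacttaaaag
Oas1a, chr5:120907526-120907645, minus strand: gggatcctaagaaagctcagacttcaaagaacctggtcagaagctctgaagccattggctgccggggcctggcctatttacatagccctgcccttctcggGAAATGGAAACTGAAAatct
Oas1g, chr5:120887614-120887733, minus strand: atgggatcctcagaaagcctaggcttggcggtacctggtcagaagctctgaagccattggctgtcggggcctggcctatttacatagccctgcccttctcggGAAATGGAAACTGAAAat
Oas3, chr5:120777660-120777779, minus strand: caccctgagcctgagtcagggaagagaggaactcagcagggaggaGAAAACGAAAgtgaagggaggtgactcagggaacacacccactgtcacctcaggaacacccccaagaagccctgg
Ifit1, chr19:34640769-34640888, plus strand: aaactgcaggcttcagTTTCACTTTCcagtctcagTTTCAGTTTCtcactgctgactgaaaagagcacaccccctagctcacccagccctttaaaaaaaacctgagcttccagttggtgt
Rsad2, chr12:26456453-26456572, minus strand: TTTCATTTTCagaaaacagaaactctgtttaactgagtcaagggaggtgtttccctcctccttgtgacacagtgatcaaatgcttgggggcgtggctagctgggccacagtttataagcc
Igtp, chr11:58199436-58199555, plus strand: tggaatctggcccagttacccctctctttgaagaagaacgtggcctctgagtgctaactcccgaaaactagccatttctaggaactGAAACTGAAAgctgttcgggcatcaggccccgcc
Irgm2, chr11:58214857-58214976, plus strand: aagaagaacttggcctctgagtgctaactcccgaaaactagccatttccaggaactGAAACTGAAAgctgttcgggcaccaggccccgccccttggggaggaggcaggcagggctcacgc
Samhd1, chr2:157135097-157135216, minus strand: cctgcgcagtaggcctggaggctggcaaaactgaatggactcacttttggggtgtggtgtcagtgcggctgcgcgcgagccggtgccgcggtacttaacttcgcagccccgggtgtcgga
Irf7, chr7:141266425-141266544, minus strand: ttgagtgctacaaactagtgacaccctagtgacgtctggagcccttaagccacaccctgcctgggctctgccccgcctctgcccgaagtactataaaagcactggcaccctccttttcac
Ifitm2, chr7:140955962-140956081, minus strand: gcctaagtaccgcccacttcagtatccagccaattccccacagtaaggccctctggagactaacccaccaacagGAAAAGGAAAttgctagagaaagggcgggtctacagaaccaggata
Isg15 had 3 overlapping matches in its stretch, Oas1a, Oas1g and Ifit1 had 2 each, Samhd1 and Irf7 had 0 and the others 1. Ifit2, also higher in the CD26-named library of both depots, had 0 in its windows too. Oasl2, Irf9, Ifi35 and Xaf1, whose depots were separated and which are not shown, also had 0. In Ifit1 and Rsad2 the matches are on the opposite strand, so they read TTTC in place of GAAA. The stretches of Oas1a and Oas1g share an identical run of 56 bases, and those of Igtp and Irgm2 one of 38 bases. A match is a description of the letters and not a bound site.

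**Figure D2:**
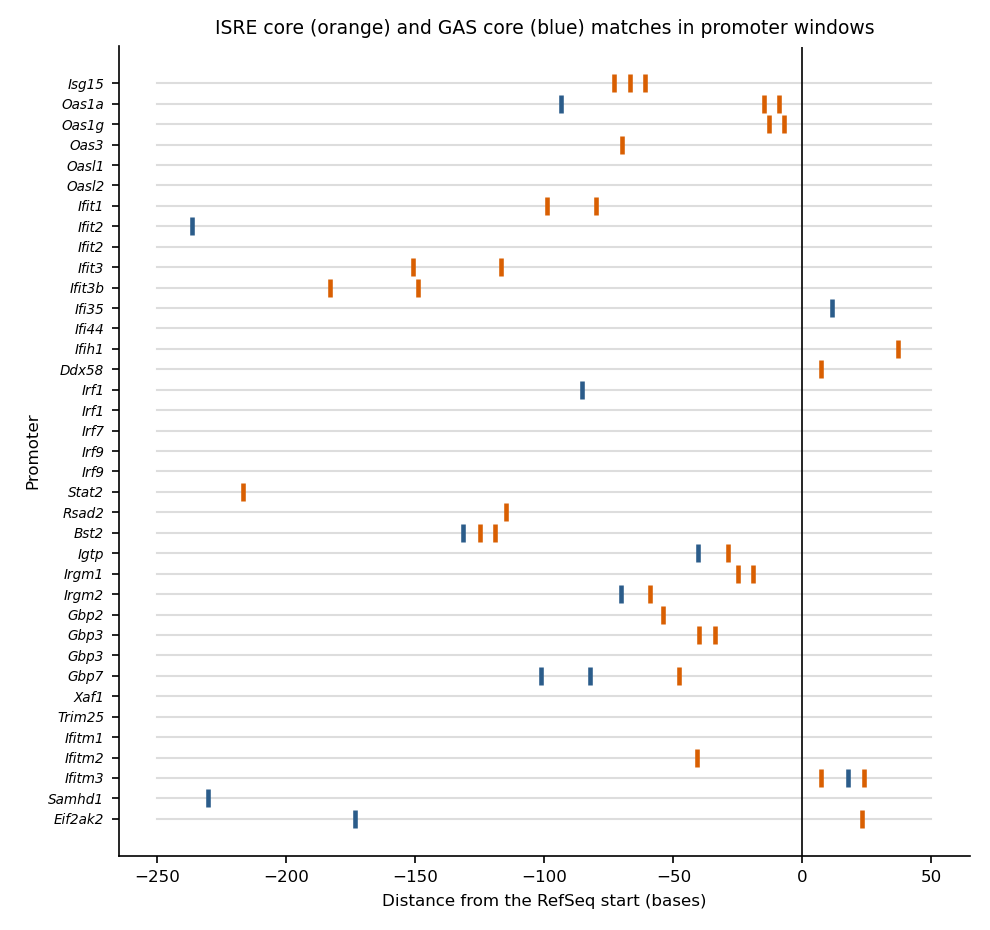
Positions of ISRE core (orange) and GAS core (blue) matches in the 37 RefSeq promoter windows of 33 members, as distance in bases from the start (vertical line); a gene with several starts has several lines. Matches of Isg15, the Oas1 genes, Oas3, Ifit1 and the Igtp and Irgm2 pair lie within the last 120 bases before the start, and 12 members have no ISRE core in their windows.

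Between depots, 43 of the 44 members had a fitted SAT minus VAT difference above 0, with Ifitm1 as the exception, but no member passed the test. The median log2 difference was 0.80, against 0.01 over all 15920 tested genes, of which 50.9% were above 0. Differences ran from -1.58 (Ifitm1) to 4.28 (Oas3). By edgeR's quasi-likelihood test with Benjamini-Hochberg adjustment over all tested genes, 0 members were called, where 8 genes (0.0503% of those tested) were. At unadjusted p under 0.05, 19 members were higher and 1 was lower in SAT, as were 3.22% and 3.54% of tested genes. Without Oas1g and Oas3, 41 of 42 members were above 0, the median was 0.77, and 17 members were higher and 1 lower at unadjusted p under 0.05. Without SAT library 2, which leaves 1 SAT library, the median over all 44 was 0.52. The count of 20 at unadjusted p under 0.05, which includes Oas1g and Oas3, was 11 without VAT CD26-CD142+ library 2. The share of all tested genes in that fit is not given here, so a loss over all genes was not set apart. DESeq2 called 10 members (2.92% of tested genes): Isg15, Oas1a, Oas1g, Oas2, Oas3, Usp18, Bst2, Igtp, Iigp1 and Zbp1. Of these, Oas1g and Oas3 had to differ, so their calls are not evidence. Limma-voom called 0. Without a filter on low counts edgeR called Isg15 and Oas2, beside 0.255% of the genes then tested.

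Without a test, the order of the libraries can be given for each member. Both SAT libraries were above all 3 VAT libraries for 22 members (50%), a pattern seen in 9.64% of tested genes, and below all 3 for 1 member, Ifitm1 (10.2% of tested genes). Without Oas1g and Oas3, left out after the values were seen, both SAT libraries were above for 20 of 42 members (47.6%). The 22 were Isg15, Usp18, 5 of 6 oligoadenylate synthetase genes, 6 of 7 interferon-inducible GTPase genes, Ifit1, Ifit3, Irf9, Stat2, Bst2, Zbp1, Ifi35, Xaf1 and Rtp4. The count was 37 without SAT library 1 and 23 to 25 without any other library. With a library left out the rule is easier to meet for any gene, so these counts are no check of the 22. Between libraries whose names end in the same number, SAT library 1 was above VAT CD26-CD142+ library 1 for 35 members (median ratio 1.40). SAT library 2 was above VAT CD26-CD142+ library 2 for 39 (median ratio 2.57) and above the VAT CD26+CD142+ library for 42 (median ratio 1.99). Of all tested genes, 49.3% to 50.3% were higher in SAT in these pairs. ISRE core matches occurred in 13 of the 17 separated members with a promoter window and in 8 of the 16 other members with one. The 13 include Oas1g and Oas3, which had to differ between depots, so the counts are a description only. Of members higher in the CD26-named library of both depots, 19 had a window and 13 of these a match. These groups share members.

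**Figure D3:**
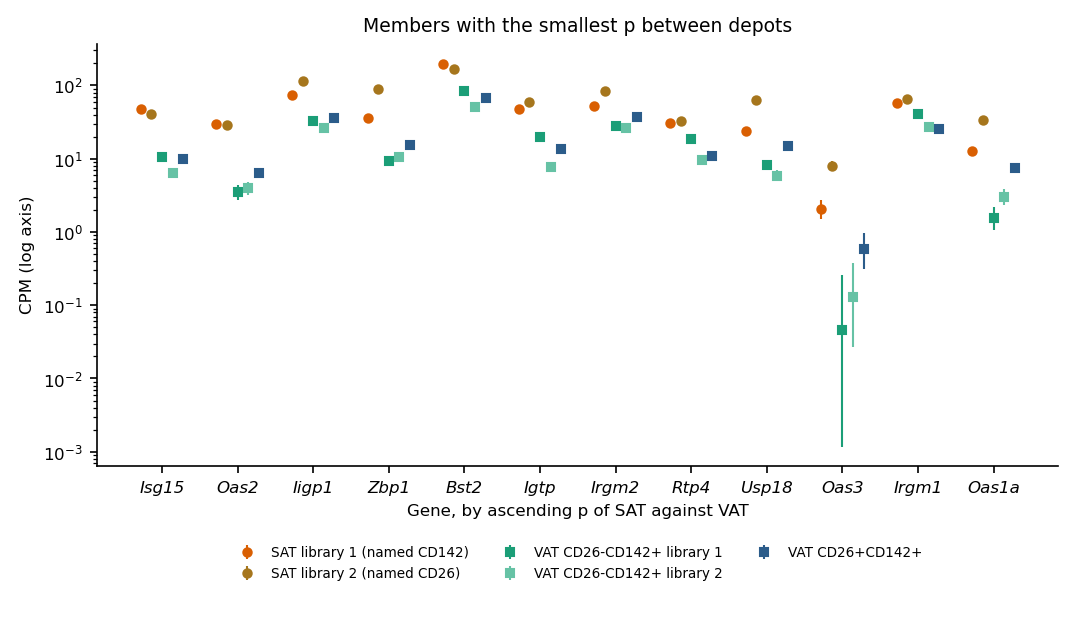
CPM (log axis) of the 12 members with the smallest p between depots in each library, with SAT as circles, VAT as squares and 95% Poisson counting intervals as bars (n = 2 SAT and 3 VAT libraries). For each of the 12 genes both circles lie above all 3 squares; Oas3 has 1 to 14 counts in VAT, which gives the long bars.

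Of the ISG15 pathway, Isg15 had the smallest p between depots. Isg15 (ENSMUSG00000035692, chromosome 4, 156199424 to 156200818) encodes the ubiquitin-like modifier itself. It was at 47.7 and 41.4 CPM in SAT, 10.5 and 6.45 CPM in VAT CD26-CD142+ and 9.81 CPM in VAT CD26+CD142+. Its lowest SAT value was thus well above its highest VAT value, and the 2 gates of a depot lay close together. The SAT mean of 44.6 ± 4.47 CPM (SD, n = 2) was 4.99-fold the VAT mean of 8.93 ± 2.18 CPM (SD, n = 3) (log2 difference 2.32, SE 0.29, edgeR adjusted p = 0.146). Usp18, the protease that removes ISG15 and restrains the type I receptor, was at 24.0 and 63.3 CPM in SAT, 8.21 and 5.85 CPM in VAT CD26-CD142+ and 15.1 CPM in VAT CD26+CD142+ (log2 difference 2.16, SE 0.57, adjusted p = 0.479). Unlike Isg15, it was also highest in SAT library 2 and in the CD26+CD142+ library within each depot. Trim25, a ubiquitin and ISG15 ligase, was at 31.8 to 70.2 CPM, and its depots overlapped.

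The 6 oligoadenylate synthetase genes had a median log2 difference between depots of 2.60, and of 1.88 over the 4 without Oas1g and Oas3, beside 2.16 for the ISG15 pathway. These enzymes make oligoadenylates on double-stranded RNA, which switch on RNase L. Oas2 (ENSMUSG00000032690, chromosome 5, 120730333 to 120749853) was at 29.9 and 28.4 CPM in SAT, 3.48 and 3.96 CPM in VAT CD26-CD142+ and 6.39 CPM in VAT CD26+CD142+. With means of 29.2 ± 1.05 CPM (SD, n = 2) and 4.61 ± 1.56 CPM (SD, n = 3), the depots were 6.33-fold apart and neither SAT gate stood out (log2 difference 2.66, SE 0.34, adjusted p = 0.146). Oas2 was the 1 member called when CD26 status by library name was a term in the fit (log2 difference 2.65, adjusted p = 0.0463, where 83 genes, 0.521%, were called).

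Oas1a was at 12.9 and 33.5 CPM in SAT, 1.56 and 3.01 CPM in VAT CD26-CD142+ and 7.38 CPM in VAT CD26+CD142+. Its near copy Oas1g, with which it shares sequence, was at 2.99 and 5.91 CPM in SAT, 0.0458 and 0.172 CPM in VAT CD26-CD142+ and 0.824 CPM in VAT CD26+CD142+. Oas3, the long synthetase, was at 2.03 and 8.03 CPM in SAT, 0.0458 and 0.129 CPM in VAT CD26-CD142+ and 0.577 CPM in VAT CD26+CD142+. All 3 had the same order: SAT library 2, SAT library 1, VAT CD26+CD142+, and the VAT CD26-CD142+ libraries last. From 1 count in VAT CD26-CD142+ library 1, the ratio of SAT library 1 to it was 65.1 for Oas1g (counting interval 11.3 to 2609) and 44.4 for Oas3 (7.58 to 1789). Log2 differences between depots were 2.54 (SE 0.75) for Oas1a, 3.65 (SE 1.10) for Oas1g and 4.28 (SE 1.13) for Oas3, with edgeR adjusted p of 0.537, 0.550 and 0.479. The synthetase-like gene Oasl2 was at 48.8 and 117 CPM in SAT and 23.4 to 48.1 CPM in VAT, where its lowest SAT and highest VAT value nearly met. Oasl1, a translational brake on Irf7, was the member of the family whose depots overlapped, at 2.55 and 8.98 CPM in SAT and 3.31 to 5.23 CPM in VAT.

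Among the 7 interferon-inducible GTPase genes, 6 were separated by depot, with a group median of 0.97. These proteins attack the membranes around intracellular pathogens. Igtp was at 47.7 and 59.1 CPM in SAT, 19.8 and 7.74 CPM in VAT CD26-CD142+ and 13.6 CPM in VAT CD26+CD142+ (log2 difference 1.96, SE 0.42, adjusted p = 0.360). Iigp1 was at 73.6 and 114 CPM in SAT, 32.8 and 26.3 CPM in VAT CD26-CD142+ and 35.4 CPM in VAT CD26+CD142+ (log2 difference 1.58, SE 0.28, adjusted p = 0.299). In CPM, each SAT value of both genes was at least as far from VAT as the VAT libraries were from each other. As a ratio this held for Iigp1 but not for Igtp. Irgm2, whose exons overlap those of Igtp, was at 53.1 and 83.7 CPM in SAT, 28.1 and 26.4 CPM in VAT CD26-CD142+ and 37.0 CPM in VAT CD26+CD142+ (log2 difference 1.16, SE 0.30). Irgm1, a regulator of the other GTPases, was at 56.9 and 64.7 CPM in SAT, 40.8 and 26.8 CPM in VAT CD26-CD142+ and 25.3 CPM in VAT CD26+CD142+ (log2 difference 0.97, SE 0.29). The guanylate-binding protein genes differed less: Gbp2 by 0.80 (SE 0.31), Gbp7 by 0.70 (SE 0.29) and Gbp3, whose depots overlapped, by 0.20. None of the 7 passed.

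The nucleic acid sensors split into Zbp1 and the 3 RIG-I-like receptors. Zbp1, a sensor of Z-form nucleic acid that can start cell death, was at 35.8 and 89.5 CPM in SAT, 9.31 and 10.5 CPM in VAT CD26-CD142+ and 15.3 CPM in VAT CD26+CD142+. Its means of 62.7 ± 37.9 CPM (SD, n = 2) and 11.7 ± 3.18 CPM (SD, n = 3) were 5.34-fold apart (log2 difference 2.42, SE 0.46, adjusted p = 0.316). Ifih1 (MDA5), Ddx58 (RIG-I) and Dhx58 (LGP2), the cytosolic RNA sensors, did not separate by depot. Ifih1 was at 59.0 CPM in SAT library 2 and 45.1 CPM in VAT CD26+CD142+, and at 25.6 to 30.2 CPM in the other 3 libraries. Ddx58 ranged from 30.4 to 55.2 CPM and Dhx58 from 6.32 to 16.4 CPM, and both had their highest values in the same 2 libraries as Ifih1. All 4 sensor genes were higher in the CD26-named library of both depots.

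Of the 4 transcription factor genes, 2 were separated by depot, with a group median of 0.71. Stat2 and Irf9, partners in the factor that binds the ISRE, were those 2: Stat2 was at 75.8 and 136 CPM in SAT and 53.9 to 61.8 CPM in VAT, and Irf9 at 48.2 and 72.4 CPM in SAT and 34.6 to 46.3 CPM in VAT. The log2 differences were 0.84 (SE 0.30) and 0.59 (SE 0.27). Irf7, the factor that amplifies interferon production, was at 45.2 and 132 CPM in SAT, 31.9 and 24.3 CPM in VAT CD26-CD142+ and 68.4 CPM in VAT CD26+CD142+, so its order followed the CD26-named libraries and its depots overlapped. Irf1, an early factor of the gamma response, showed neither order: it was at 152 and 139 CPM in SAT, 107 and 174 CPM in VAT CD26-CD142+ and 113 CPM in VAT CD26+CD142+.

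The IFIT genes, whose proteins bind viral RNA ends, went in different directions. Ifit1 was at 34.5 and 72.5 CPM in SAT, 17.5 and 8.47 CPM in VAT CD26-CD142+ and 23.9 CPM in VAT CD26+CD142+ (log2 difference between depots 1.69, SE 0.53, adjusted p = 0.576). Ifit2 was at 19.1 and 78.4 CPM in SAT, 26.2 and 30.7 CPM in VAT CD26-CD142+ and 67.8 CPM in VAT CD26+CD142+, so that SAT library 1 was its lowest library. Ifit3 was at 62.8 and 53.5 CPM in SAT, 41.2 and 18.8 CPM in VAT CD26-CD142+ and 26.9 CPM in VAT CD26+CD142+. Ifit2 thus followed the CD26-named libraries and Ifit3 the depots, while Ifit1 followed both. Ifit3b, the near copy of Ifit3, was at 11.1 and 6.18 CPM in SAT, 6.78 and 4.43 CPM in VAT CD26-CD142+ and 4.33 CPM in VAT CD26+CD142+.

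Of the other antiviral effectors, Bst2 was the 1 separated by depot. Bst2 (tetherin), which holds budding virus at the cell surface, was at 195 and 169 CPM in SAT, 84.1 and 51.6 CPM in VAT CD26-CD142+ and 68.1 CPM in VAT CD26+CD142+ (log2 difference 1.42, SE 0.28, adjusted p = 0.321). Bst2 is also a marker of plasmacytoid dendritic cells. Another of their markers, Siglech, was at 0.173 and 0.0902 CPM in SAT (4 and 2 counts) and at 0 counts in VAT. Without Bst2, the lymphocyte and plasmacytoid dendritic markers listed below summed lower in both SAT libraries than in every VAT library. Samhd1, which depletes nucleotides, was at 97.7 and 489 CPM in SAT, 85.1 and 99.8 CPM in VAT CD26-CD142+ and 248 CPM in VAT CD26+CD142+. Rsad2 (viperin) was at 3.72 and 20.2 CPM in SAT, 3.35 and 4.52 CPM in VAT CD26-CD142+ and 10.1 CPM in VAT CD26+CD142+. In both genes the CD26-named libraries were highest and the other 3 libraries lay close together whatever their depot. Eif2ak2, the kinase PKR, had the same order, at 51.2 and 34.3 CPM in the CD26-named libraries and 18.4 to 19.3 CPM in the rest. Mx1 was at 13 and 122 counts (0.563 and 5.50 CPM) in SAT, 0.963 and 1.63 CPM in VAT CD26-CD142+ and 2.14 CPM in VAT CD26+CD142+. Mx2, also a dynamin-like antiviral GTPase, was at 6.66 and 16.3 CPM in SAT, 8.94 and 15.1 CPM in VAT CD26-CD142+ and 7.91 CPM in VAT CD26+CD142+, with no order by depot or gate.

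The IFITM genes stood on the other side. Ifitm1, the surface member of the family, was at 6.71 and 2.57 CPM in SAT, 15.7 and 16.5 CPM in VAT CD26-CD142+ and 9.36 CPM in VAT CD26+CD142+ (log2 difference between depots -1.58, SE 0.53, adjusted p = 0.600). Ifitm2 was at 275 and 130 CPM in SAT, 265 and 155 CPM in VAT CD26-CD142+ and 105 CPM in VAT CD26+CD142+. Ifitm3 was at 991 and 608 CPM in SAT, 992 and 534 CPM in VAT CD26-CD142+ and 465 CPM in VAT CD26+CD142+. All 3 genes were lower in the CD26-named library of both depots, and Ifitm2 and Ifitm3 were higher in the libraries whose names end in 1, which also had the higher mitochondrial shares; the part of that difference between libraries was not tested. Ifi27 was also higher in the libraries whose names end in 1, at 359 and 127 CPM in SAT, 237 and 152 CPM in VAT CD26-CD142+ and 111 CPM in VAT CD26+CD142+.

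Of the 7 remaining members, 3 were separated by depot. Rtp4, a chaperone of receptor transport, was at 30.7 and 32.6 CPM in SAT, 18.4 and 9.72 CPM in VAT CD26-CD142+ and 10.8 CPM in VAT CD26+CD142+ (log2 difference 1.29, SE 0.34, adjusted p = 0.479). Ifi35 was at 63.8 and 55.0 CPM in SAT and 26.6 to 46.8 CPM in VAT, and Xaf1, a promoter of apoptosis, at 36.6 and 39.2 CPM in SAT and 19.5 to 31.4 CPM in VAT. Parp9 and Parp14, ADP-ribosyltransferase genes, ranged from 22.7 to 42.5 CPM and from 32.6 to 87.1 CPM, with overlapping depots. Ifi44 was low throughout, at 32 and 4 counts in SAT, 1 and 10 counts in VAT CD26-CD142+ and 36 counts in VAT CD26+CD142+.

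Within VAT, where titles and names agree, CD26+CD142+ cells were set against CD26-CD142+ cells. No member passed, and 31 of 44 had a difference above 0 (47.5% of tested genes), with a median log2 difference of 0.36 against -0.03 over all tested genes. By edgeR 254 genes (1.60%) were called and 0 members, with 8 members higher and 0 lower at unadjusted p under 0.05 (3.93% and 4.45% of tested genes). DESeq2 and limma-voom also called 0 members. The fit has 1 residual degree of freedom, from the 2 CD26-CD142+ libraries, and assumes that each lone library varies like them. The smallest p belonged to Oas1a (log2 difference 1.69, SE 0.55, adjusted p = 0.208), Samhd1 (1.42, SE 0.47, adjusted p = 0.229), Oas1g (2.84, SE 1.01), Irf7 (1.28, SE 0.46), Ifit2 (1.25, SE 0.46) and Oas3 (2.64, SE 1.03). In VAT CD26+CD142+ cells Samhd1 was 2.68-fold, Irf7 2.43-fold and Ifit2 2.38-fold above the mean of the CD26-CD142+ libraries. The CD26+CD142+ library was above both CD26-CD142+ libraries for 28 members (31.3% of tested genes had this order) and below both for 8 (33.3%). Between the 2 CD26-CD142+ libraries themselves, 15 members were at least 1.5-fold apart, as were 30.8% of tested genes.

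The 2 SAT libraries have no replicates and were compared without a test. They differ in library number and mitochondrial share as well as in gate, and these cannot be told apart. SAT library 2, named for CD26, was at least 2-fold higher for 13 members, on CPM with 1 added and with at least 10 CPM in the higher library (6.78% of tested genes): Samhd1, Rsad2, Ifit2, Irf7, Eif2ak2, Usp18, Oas1a, Zbp1, Mx2, Oasl2, Parp14, Ifih1 and Ifit1. SAT library 1 was at least 2-fold higher for 2, Ifi27 and Ifitm2 (6.79% of tested genes). The ratio of library 2 to library 1 was 5.01 for Samhd1 (95% counting interval 4.79 to 5.24), 5.42 for Rsad2 (4.29 to 6.91) and 4.10 for Ifit2 (3.69 to 4.56). It was largest for Mx1 at 9.78 (5.51 to 18.9), which stayed under 10 CPM. In the other direction the ratio of library 1 to library 2 was 2.83 for Ifi27 (2.71 to 2.95) and, from 4 counts in library 2, 7.67 for Ifi44 (2.72 to 29.9). Isg15 (0.868, 0.794 to 0.948) and Oas2 (0.950, 0.852 to 1.06) were nearly level between the 2 libraries.

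Taking the gates by library name, 26 members (59.1%) were higher in the CD26-named library of both depots, an order seen in 24.1% of tested genes. The other way, 6 were lower in both (26% of tested genes): Ifit3b, Ifi27, Ifi35, Ifitm1, Ifitm2 and Ifitm3. In SAT the gate by name goes with the number that ends the library name, so these cannot be told apart there. Of the 26, 13 were also separated by depot, among them Oas1a, Oas1g, Oas3, Usp18, Zbp1 and Ifit1. Another 13 were higher in the CD26-named libraries without separating by depot, among them Samhd1, Rsad2, Irf7, Ifit2, Eif2ak2 and the RIG-I-like receptor genes. A further 9 were above VAT in SAT but not among the 26, among them Isg15, Oas2, Bst2 and Igtp, and 9 were in neither group. These groups count higher values only. Ifi35 of the first 9, and Ifit3b, Ifi27 and the IFITM genes of the last 9, were lower in the CD26-named library of both depots. Ifitm1 was also lower in SAT than in VAT. In a fit over both depots with depot as a term, added after the values were seen, edgeR called 0 members (95 genes, 0.597%), with 17 higher and 3 lower at unadjusted p under 0.05 (6.56% and 9.47% of tested genes). The smallest adjusted p were 0.0949 for Irf7 (log2 difference 1.40, SE 0.23), 0.0954 for Samhd1 (1.82, SE 0.31) and 0.0975 for Ifit2 (1.59, SE 0.27). With gates by title, 0 genes and 0 members were called, with 0 members at unadjusted p under 0.05.

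**Figure D4:**
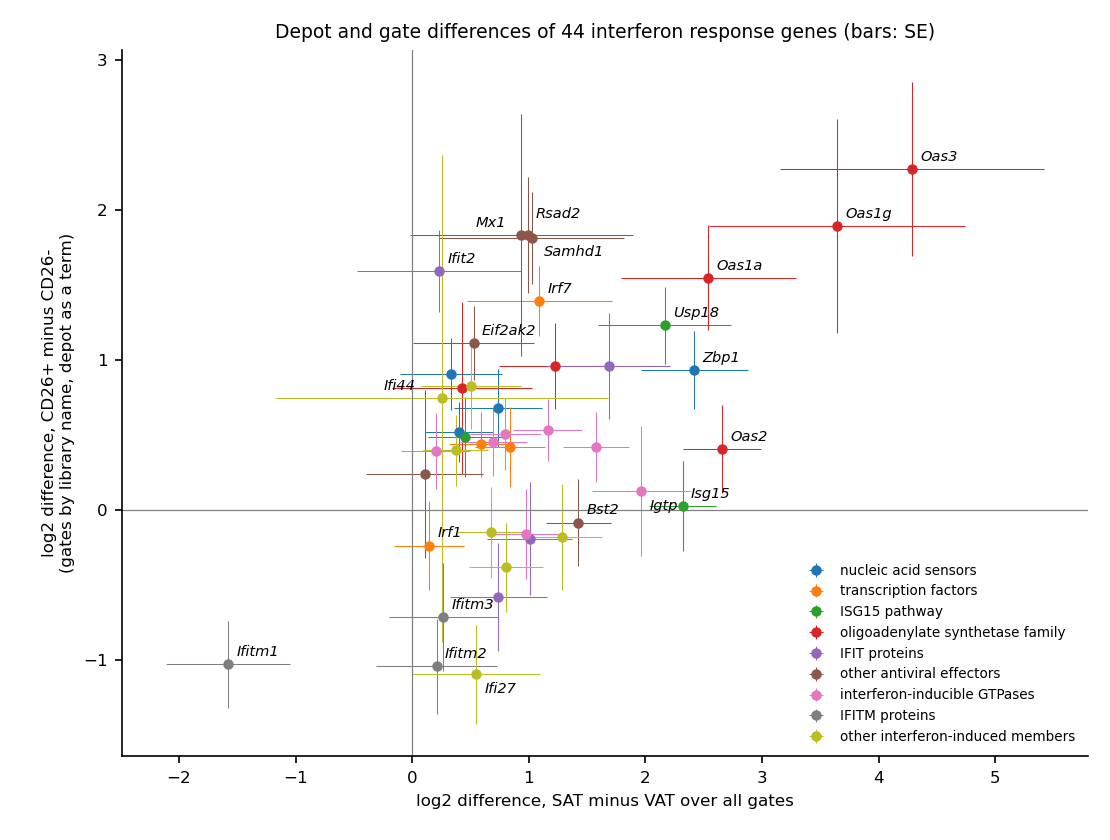
Fitted log2 difference of each member between depots (x axis, SAT minus VAT) and between gates by library name with depot as a term (y axis, CD26+ minus CD26-), with SE bars and colours by role. Oas1a, Oas1g and Oas3 lie to the upper right, Isg15, Bst2 and Igtp to the right near 0 on the y axis, Samhd1, Rsad2, Irf7 and Ifit2 above, and the IFITM genes below; no point passed the adjusted threshold on either axis.

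**Figure D5:**
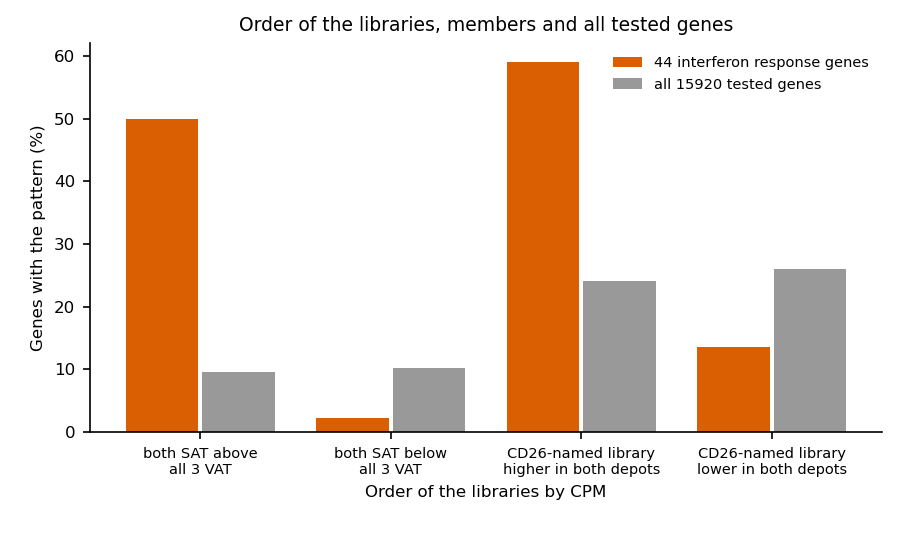
Share of the 44 members (orange) and of all 15920 tested genes (grey) with each order of the libraries by CPM, in percent. The members' bars reach 50% for both SAT libraries above all VAT libraries against 9.64%, and 59.1% for the CD26-named library higher in both depots against 24.1%.

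SAT was compared with the VAT CD26-CD142+ libraries by title and again by library name, since the SAT side depends on that choice. By title the SAT side is the library with high Dpp4 and low F3, so gate and depot cannot be told apart there. By title, which takes SAT library 2, 15 members rose and 1 fell in SAT (2.80% and 3.68% of tested genes did). By name, which takes SAT library 1, 6 rose and 0 fell (1.36% and 0.992%), and all 6 had also risen by title: Isg15, Oas1a, Oas1g, Oas2, Oas3 and Zbp1. By title the log2 difference of Isg15 was 2.28 (SE 0.48, adjusted p = 0.00664), that of Oas2 2.93 (SE 0.48) and that of Zbp1 3.17 (SE 0.46). With SAT library 1 it was 2.49 for Isg15 (SE 0.48, adjusted p = 0.00872) and 1.85 for Zbp1 (SE 0.46, adjusted p = 0.0457), and Oas2 had the smallest p of all members (adjusted p = 0.00229). The 9 that rose by title alone were Oasl2, Usp18, Ifit1, Irf7, Rsad2, Igtp, Irgm2, Iigp1 and Samhd1, and Ifitm1 fell by 2.65 (SE 0.62, adjusted p = 0.0144). Samhd1 rose by 2.40 (SE 0.47, adjusted p = 0.00387) with SAT library 2 and was at 0.080 (SE 0.49) with SAT library 1, and Rsad2 was at 2.36 and -0.079. These 2 are members whose level differed between the 2 SAT libraries. Both comparisons use the same VAT libraries, and neither has a replicate on the SAT side. Oas1g and Oas3, counted among those that rose, passed the filter through SAT and had to differ, so their calls are not evidence.

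The difference between depots in the CD26 effect was called for 5 members by title, all lower in SAT (2.73% of tested genes were lower): Samhd1 (-3.75, SE 0.76, adjusted p = 0.00571), Ifit2 (-3.29, SE 0.74), Rsad2 (-3.80, SE 0.88), Irf7 (-2.83, SE 0.73) and Oas1a (-3.06, SE 0.85, adjusted p = 0.0412). By library name edgeR called 0 members, with 1 higher and 1 lower at unadjusted p under 0.05 (1.51% and 2.96% of tested genes), where 40 genes (0.251%) were called. Samhd1 was then at 0.90 (SE 0.75) and Ifit2 at 0.78 (SE 0.73). By title, the SAT library taken as CD26+ is the one with low Dpp4 and high F3. The SAT side of the values by title is thus low Dpp4 minus high Dpp4, and by the sort genes it is not a CD26 effect.

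Of the rest of the pathway, the interferons themselves were barely seen. None of 21 interferon genes passed the filter, 17 had 0 counts in all 5 libraries, and the highest value was 0.173 CPM. Ifnb1 had 3 counts in SAT library 2 and 0 elsewhere, and 0 counts allow up to 0.124 to 0.138 CPM. The receptors were present in every library, Ifnar1 at 46.0 to 67.3 CPM, Ifnar2 at 55.1 to 68.7 CPM and Ifngr1 at 262 to 302 CPM. Of 10 tested receptor, kinase and STAT genes 0 passed between depots (median 0.08), and Ifngr2 was the 1 at unadjusted p under 0.05, at 68.7 and 48.6 CPM in SAT and 29.8 to 38.7 CPM in VAT (log2 difference 0.80, SE 0.25). Of 14 genes of nucleic acid sensing 0 passed (median -0.01), with 2 higher and 1 lower at unadjusted p under 0.05. The STING gene Tmem173 was at 42.1 and 41.8 CPM in SAT and 18.5 to 25.1 CPM in VAT (0.95, SE 0.23). The kinase gene Ikbke went the other way, at 33.8 and 40.2 CPM in SAT and 51.4 to 65.9 CPM in VAT (-0.70, SE 0.23).

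Of 9 other regulatory factor genes 0 passed between depots (median 0.19). Nlrc5, the activator of MHC class I genes, was at 12.0 and 30.4 CPM in SAT and 1.01 to 5.19 CPM in VAT. Against the VAT CD26-CD142+ libraries its log2 difference was 3.91 with SAT library 2 and 2.57 with SAT library 1. Irf4 was at 28.7 and 136 CPM in SAT, 7.43 and 9.68 CPM in VAT CD26-CD142+ and 30.8 CPM in VAT CD26+CD142+, and was called between gates by library name (2.02, adjusted p = 0.0499). Of 13 negative regulators 0 passed between depots (median 0.21), and the STAT inhibitor gene Cish had the smallest p (2.13, SE 0.33, adjusted p = 0.210). Of 58 other interferon-induced genes 49 were above 0 in SAT (50.9% of tested genes were), with a median of 0.75, and 0 passed. The smallest p were those of the GTPase genes Ifi47 (2.24, SE 0.35, adjusted p = 0.210) and Tgtp2 (3.09, SE 0.56) and the chemokine genes Cxcl10 (1.08, SE 0.27) and Cxcl9 (2.75, SE 0.75). Against the VAT CD26-CD142+ libraries, 51 of the 58 were above 0 with SAT library 2 (48.1% of tested genes were), with a median of 0.997. With SAT library 1, 46 of the 58 were above 0 (46.9% of tested genes were), with a median of 0.373.

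Markers of other cell types stood as follows beside these values. The 10 macrophage markers summed to 58.9 and 27.2 CPM in SAT and to 29.0 to 39.7 CPM in VAT, with Adgre1 at no more than 0.412 CPM and 1 of 8 tested genes separated by depot. The 8 endothelial markers summed to 18.5 and 34.0 CPM in SAT and 10.2 to 22.1 CPM in VAT, with 2 of 8 separated. The 6 mural markers summed to 40.5 and 37.1 CPM in SAT and to 118 to 212 CPM in VAT, without overlap, with 1 of 6 genes above and 2 below in SAT. The 10 lymphocyte and plasmacytoid dendritic markers, which include the member Bst2, summed to 293 and 282 CPM in SAT and to 202 to 231 CPM in VAT. Of these, 2 genes were above and 2 below in SAT, and 7 of 10 were under 1 CPM in every library. Bst2 alone was at 195 and 169 CPM in SAT and 51.6 to 84.1 CPM in VAT. Without it, the rest of the list summed lower in both SAT libraries than in every VAT library. The B cell gene Cd79a was at 0.183 to 1.21 CPM and the T cell gene Cd3e at 0 counts in 4 libraries. Mast cell and granulocyte markers summed to 5.80 and 2.93 CPM in SAT and 0.779 to 1.65 CPM in VAT. Their part in the members' values was not tested.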

How the data were processed

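The deposited table holds the authors' raw counts of reads for each Ensembl gene in the 5 libraries, without normalization, and gene lengths in bases as its other unit. Per the submitters' processing notes, featureCounts 1.5.0-p3, CASAVA and HISAT2 2.0.5 were used with mm10; the annotation release and the strand setting are not given in the sources used here. Counts were scaled by TMM in edgeR 4.0.16 (R 4.3.3). filterByExpr (minimum count 10, depot as group) kept 15920 genes and left out 38612. edgeR's quasi-likelihood F test was used, its p-values adjusted by Benjamini and Hochberg over every tested gene and called at 0.05. An SE is the difference over the square root of F. Depot had 3 residual degrees of freedom, and the fit of 4 groups had 1. Other fits used DESeq2 1.42.0 and limma-voom (limma 3.58.1). Intervals at 95% are exact and, like the floor of 3 counts, cover counting error only. Libraries were grouped by title. The members and lists were chosen with earlier results of these data known. All 44 members could be named; values in every library were given for the 12 smallest p between depots, the 6 in the VAT gate, the 6 highest levels per length, the largest ratio of the SAT libraries in each direction, and close paralogs. The test code was tested on simulated data. Shared 100-base stretches were counted in GENCODE mouse release M21.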

Additional observations from a re-analysis of the deposited data

Results flagged for a closer look

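For 5 members the difference between CD26+ and CD26- cells, with the SAT gates taken by title, differed between SAT and VAT by edgeR's test of that difference itself. The value, as the SAT effect minus the VAT effect on the log2 scale, was -3.75 for Samhd1, -3.29 for Ifit2, -3.80 for Rsad2, -2.83 for Irf7 and -3.06 for Oas1a. All 5 are genes that were higher in SAT library 2, titled CD26-CD142+ and named for CD26, than in SAT library 1. SAT library 2 is also the SAT library with high Dpp4, so the SAT effect by title runs against the sort genes. With the SAT gates by library name the values were 0.90, 0.78, 1.07, 0.26 and -0.31, and none passed.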

How the results depend on the processing

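Between depots, the 0 members called by edgeR became 10 with DESeq2 (465 genes against 8), among them Oas1g and Oas3. The count was 2 with no filter on low counts (70 genes) and 1 with CD26 status by library name as a term (83 genes). It stayed at 0 with each library left out (0 to 0), with limma-voom and under the other scalings. Of the 12 members with the smallest p, none changed direction under any alternative run. They were picked by p in these same libraries and include Oas3, so their kept direction is no separate support. The CD142+ comparison by title takes the SAT library with high Dpp4, as above. Within the CD142+ gate, 16 members were called by title and 6 by library name, where Rsad2 turned to -0.079; other settings gave 14 to 17. The interaction's 5 members became 8 with no filter (1621 genes against 1053) and 0 with gates by library name, where Ifit2 (0.78), Irf7 (0.26), Rsad2 (1.07) and Samhd1 (0.90) turned sign. The members separated by depot were 22 in all 5 libraries and 23 to 37 with a library left out, 37 being without SAT library 1. Fewer libraries make that rule easier to meet for any gene, so the rise is no sign of stability. Genes called in the VAT gate were 254, but 410 with upper-quartile scaling, 491 with no filter and 383 without SAT library 1, with 0 members in each. Upper-quartile scaling moved the median of all genes in the interaction from 0.04 to 0.16. With the library number as a block, 0 members and 5 genes were called between depots and 24 members were at unadjusted p under 0.05; deviations from the depot means correlated at 0.661 over genes between the libraries numbered 1, but with only 2 numbers, which no label explains, the samples are not taken as paired. For the other comparisons a block left no residual degrees of freedom, as did leaving out either VAT CD26-CD142+ library. Members with 1 to 4 counts in a library (Oas1g, Oas3, Ifi44) are limited by depth.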
